A study of Homo sapiens with 6 samples.

Results

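The genes described here are the solute carrier (SLC) genes that YAPC cells, a human pancreatic cancer line, expressed at a measurable level. They were taken from the deposited expression table as the entries whose name starts with SLC and a digit, without the glucose (SLC2A), monocarboxylate (SLC16A) and mitochondrial (SLC25A) carriers, without names that hold a hyphen or comma, and averaging 1 FPKM or more across the 6 libraries. FPKM is the number of sequenced fragments scaled to transcript length and library size. Of 297 SLC names that met the rule on names, 154 passed the rule on level and 143 did not, of which 32 were listed at 0 in every library. The 154 genes belong to 43 SLC families, 13 of them with 1 gene here, among 12493 genes tested. By the same rule, 3 entries above 1 FPKM that merge an SLC name with another gene were left out. The rule used the level over all libraries and not the difference between groups.

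SLC proteins sit in membranes and move a solute down its own gradient or couple its movement to that of sodium, protons or another solute. In epithelial cells of the pancreatic duct, SLC proteins are known for bicarbonate and chloride secretion, and in tumour cells for the supply of amino acids and vitamins.

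All 6 libraries were made from total RNA of YAPC cells given Dox (doxycycline) for 6 days, which switches on the inducible promoter of the retroviral vector pRetroX-Tight-Puro. YAPC is a line that the study uses for the classical subtype of pancreatic ductal adenocarcinoma. In YAPC-iGLI2 cells (iGLI2, n = 3) the vector carried GLI2, the transcription factor at the end of the Hedgehog pathway, and in YAPC-iEV cells (iEV, n = 3) it was empty. Both groups therefore shared the rtta activator, the vector and Dox, and a library without Dox was not analysed here. The labels do not say whether the libraries of a group came from separate cultures, so p-values measure the spread between these libraries, which may be technical.

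GLI2 itself was at 0.466, 0.412 and 0.344 FPKM in iEV replicates 1, 2 and 3 and at 94.5, 207 and 195 FPKM in iGLI2 replicates 1, 2 and 3. Of 6 epithelial markers, KRT7, KRT19, EPCAM and CDH1 were expressed in every library, and KRT8 and KRT18 were listed at 0 under 1 shared locus, which was not read as absence. The summed level of 4 leukocyte markers was at most 3.49 FPKM, of 4 endothelial markers at most 0.599 FPKM, of 6 fibroblast and smooth muscle markers at most 3.91 FPKM, of 4 acinar markers at most 13.3 FPKM and of 3 islet markers at most 0.061 FPKM. iGLI2 replicate 1 stood apart from the rest of its group over the SLC genes. Its root mean square deviation from the group mean on the log2 scale was 0.237, against 0.121 and 0.133 in iGLI2 replicates 2 and 3, and the iEV libraries had 0.166, 0.0974 and 0.0952. Both first replicates thus lay farther from their group than the others did. Libraries could not be weighed by depth, because FPKM holds no read count.

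The name "plasma membrane" covers only some of these genes. From general knowledge of the families, 56 of the 154 were placed with carriers of the Golgi, endoplasmic reticulum, lysosome, mitochondrion or vesicles. Of these, 23 are in family 35, which holds the nucleotide sugar carriers, and 4 are among the zinc carriers of family 30. Family 35 was placed as a whole, so single members may sit elsewhere. A further 5 are no transporters: the scaffold genes SLC9A3R1 and SLC9A3R2, SLC4A1AP, SLC7A6OS and the antisense gene SLC22A18AS. SLC22A20, counted with the carriers by its name, is annotated as a transcribed unitary pseudogene. The other 93 are described as plasma membrane carriers or have no settled place.

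Before the levels, the upstream sequences of 3 of the 4 genes that rose most are shown, because these windows could be read for letters known to be bound by GLI and by Sp1 proteins. The windows are the 250 bases before an annotated start in RefSeq, on build GRCh38.p14, which is not the hg19 build of the expression table. The table matched 124 of the 154 genes, with 186 windows, and held no entry for SLC22A20 or SLC4A11. Capitals mark GGGCGG, the core of the GC box, on either strand. The urea transporter gene SLC14A1 has 2 starts, at chr18:45723931-45724180 and chr18:45726703-45726952 on the plus strand, the citrate transporter gene SLC13A5 has 1 window at chr17:6713370-6713619 on the minus strand, and the monoamine transporter gene SLC29A4 has 1 at chr7:5282693-5282942 on the plus strand.
SLC14A1, start 1: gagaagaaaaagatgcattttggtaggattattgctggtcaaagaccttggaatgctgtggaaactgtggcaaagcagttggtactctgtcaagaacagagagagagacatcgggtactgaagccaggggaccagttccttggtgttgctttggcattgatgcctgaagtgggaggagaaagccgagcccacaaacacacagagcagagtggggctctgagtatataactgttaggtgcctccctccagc
SLC14A1, start 2: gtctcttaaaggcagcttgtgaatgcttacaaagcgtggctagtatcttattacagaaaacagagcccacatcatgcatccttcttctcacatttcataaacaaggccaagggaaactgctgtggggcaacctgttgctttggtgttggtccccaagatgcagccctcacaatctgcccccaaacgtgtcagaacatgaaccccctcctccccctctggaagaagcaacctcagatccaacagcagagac
SLC13A5: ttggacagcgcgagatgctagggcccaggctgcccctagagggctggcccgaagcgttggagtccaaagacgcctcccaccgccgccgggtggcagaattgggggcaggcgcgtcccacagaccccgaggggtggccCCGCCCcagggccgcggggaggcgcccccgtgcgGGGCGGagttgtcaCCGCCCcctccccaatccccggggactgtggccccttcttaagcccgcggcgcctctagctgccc
SLC29A4: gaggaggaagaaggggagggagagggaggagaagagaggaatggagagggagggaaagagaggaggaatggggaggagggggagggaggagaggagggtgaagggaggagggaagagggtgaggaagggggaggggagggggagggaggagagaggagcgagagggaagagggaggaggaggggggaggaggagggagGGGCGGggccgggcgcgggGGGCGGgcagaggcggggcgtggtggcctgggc
The windows were not alike in base composition. GC content was 74.0% in SLC13A5 with 3 GC box cores, 70.4% in SLC29A4 with 2, and 49.6% in both SLC14A1 windows with 0.

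GACCACCCA, the consensus letters bound by GLI proteins, were searched on both strands in the same 250 bases. They were in 0 of the 20 windows of SLC genes that were higher in iGLI2 cells, in 0 of the 33 windows of those that were lower, in 1 of the 133 windows of those not called, and in 0.199% of all 35116 windows of the table. The shorter core CCACCCA, which lies within it, was in 0 of 20, 3 of 33 and 13 of 133 windows, and in 8.17% of all windows. GGGCGG was in 14 of 20, 21 of 33 and 86 of 133 windows, which makes 65.1% of the 186 SLC windows against 42.6% of all. TATAAA was in 4.84% of the SLC windows and in 10.7% of all. Median GC content was 65.6% over the SLC windows and 58% over all. The SLC windows belong to genes chosen for expression in these cells, and the full set of windows was not filtered so. The sets therefore differ in more than the SLC name. These are counts of letters in a short window, and binding was not measured.

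To ask whether GLI2 changed the set of carriers that the cells express, iGLI2 was compared with iEV gene by gene. At an adjusted p under 0.05 by limma, iGLI2 cells had 19 of the 154 SLC genes (12.3%) at a higher and 29 (18.8%) at a lower level than iEV cells, and 106 did not pass. Over all 12493 genes tested, 10.1% were higher and 11.8% were lower, 21.9% in all. A change of at least 2-fold on the log2(FPKM + 1) scale was an increase in 5 SLC genes and a decrease in 2, against 2.59% and 1.62% of all genes. Among the 148 SLC genes averaging 1 FPKM or more in both groups, 3 rose and 2 fell by that much. SLC14A1 and SLC29A4 rose as well, but passed the limit of level through the iGLI2 libraries alone. Most changes were small: the median log2 fold change was -0.034 over the SLC genes and -0.015 over all genes, and 23 of the 48 called genes changed by over 1.5-fold. The values of the groups did not overlap in 93 of 154 genes (60.4%), against 42.0% of all genes. Called genes came from 30 of the 43 families. Of the 56 genes of carriers inside the cell, 7 were higher and 10 lower, and of the 93 others 10 were higher and 17 lower. Values of change given below are log2 fold changes on the log2(FPKM + 1) scale, iGLI2 over iEV.

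The count depended on single libraries and on the scaling. Without iEV replicate 1 it was 17 higher and 20 lower, without iEV replicate 2 it was 8 and 13, and without iEV replicate 3 it was 9 and 14. Without iGLI2 replicate 2 it was 9 and 17, and without iGLI2 replicate 3 it was 10 and 15. The share of all genes that passed was not counted for these fits, so the drop cannot be read as particular to SLC genes. The count grew to 25 and 38 without iGLI2 replicate 1, where 14.8% and 15.2% of all genes passed. Without both first replicates it was 37 and 49, where 21.3% and 22.5% of all genes passed. With small RNA genes left out and the libraries rescaled, the split was 21 higher and 21 lower beside 14.7% and 10.1% of all genes, so the share of higher genes among the called SLC genes went from 39.6% to 50%. Under that scaling 9 lower calls were lost and 3 calls gained. The lost calls were SLC15A2, SLC18B1, SLC20A2, SLC31A2, SLC35A4, SLC35F2, SLC45A3, SLC50A1 and SLC7A6OS. Upper quartile scaling lost the calls of SLC18B1 and SLC27A5, and quantile normalization those of SLC35F2 and SLC4A7. No called gene changed sign under any of these scalings. In 20 of the 48 called genes the adjusted p stayed under 0.05 whichever single library was left out. For 6 genes the mean of 1 group was under 1 FPKM, and among the other 148 genes 17 were higher and 29 lower.

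**Figure D1:**
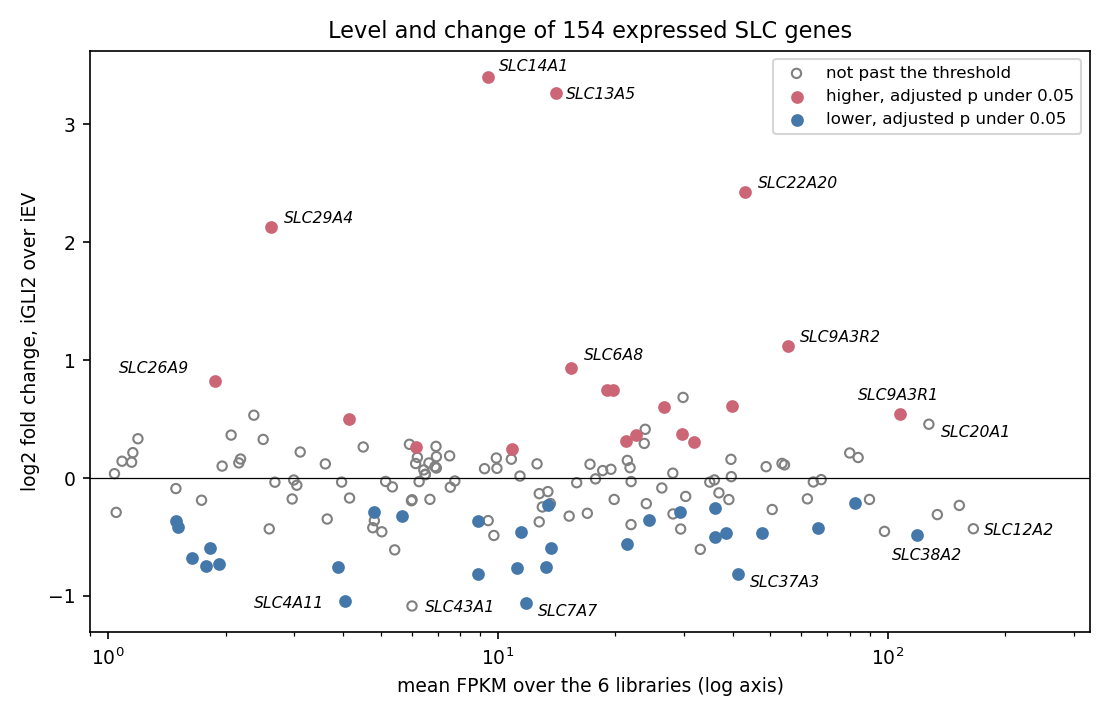
Each point is 1 of the 154 SLC genes, with its mean FPKM over the 6 libraries on a log axis and its log2 fold change, iGLI2 over iEV, on log2(FPKM + 1). Filled points passed an adjusted p of 0.05 (19 higher, 29 lower), and 4 genes lie above a log2 fold change of 2 while no gene lies below -1.09.

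The 4 largest changes were increases, in the genes of carriers of urea, citrate and monoamines and in the pseudogene SLC22A20. SLC14A1 (hg19 chr18:43304088-43332485), the urea transporter of red cells and several epithelia, was at 2.13, 0.274 and 0.349 FPKM in the iEV libraries and at 23.9, 13.8 and 16.2 FPKM in the iGLI2 libraries. iEV replicate 1 was the highest of its group, and still far under the lowest iGLI2 library. The log2 fold change was 3.40 (SE 0.39, adjusted p = 0.00294), and the mean FPKM was 19.6 times that of iEV, or 57.7 times without iEV replicate 1. With an iEV mean of 0.918 FPKM the gene passed the limit of level through the iGLI2 libraries alone.

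SLC13A5 (hg19 chr17:6588032-6616740) encodes a sodium-coupled citrate transporter that is best known in liver. It was at 2.36, 1.52 and 1.62 FPKM in iEV cells and at 21.7, 28.1 and 29.1 FPKM in iGLI2 cells, with a log2 fold change of 3.27 (SE 0.16, adjusted p = 0.000218). All iGLI2 values lay above all iEV values.

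SLC29A4 (hg19 chr7:5322561-5343704) encodes the plasma membrane monoamine transporter, an organic cation carrier in a family of nucleoside carriers. It was at 0.218, 0.464 and 0.368 FPKM in iEV cells, so that it too passed the limit of level through the iGLI2 libraries alone, and at 5.11, 5.14 and 4.43 FPKM in iGLI2 cells. The log2 fold change was 2.13 (SE 0.11, adjusted p = 0.000226), and the iGLI2 libraries differed little among themselves. The other 3 expressed genes of its family were not called: the nucleoside carriers SLC29A1 (-0.035), SLC29A2 (-0.30) and SLC29A3 (0.041).

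SLC22A20 (hg19 chr11:64981311-65010228) bears the name of an organic anion transporter and is annotated in GENCODE as the pseudogene SLC22A20P. It was at 11.3, 13.5 and 13.3 FPKM in iEV cells and at 58.95, 82.4 and 78.9 FPKM in iGLI2 cells, the highest level in its class. The log2 fold change was 2.43 (SE 0.15, adjusted p = 0.000387). Its entry begins 1834 bases after the end of CAPN1, a calpain protease gene on the same chromosome, which had between 224 and 240 FPKM in iEV and between 241 and 293 FPKM in iGLI2 libraries (log2 fold change 0.24, adjusted p = 0.124). Whether reads that run on from CAPN1 enter the entry was not tested.

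SLC9A3R2 (hg19 chr16:2076869-2089027), also called NHERF2, is a scaffold that holds SLC9A3 and other membrane proteins in place. It was the other gene that rose at least 2-fold on the log2(FPKM + 1) scale. It was at 35.4, 35.1 and 32.8 FPKM in iEV cells and at 66.8, 78.0 and 84.3 FPKM in iGLI2 cells (log2 fold change 1.12, SE 0.097, adjusted p = 0.00112). These 5 genes kept an adjusted p of at most 0.0195 whichever single library was left out.

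Among the genes that fell, 2 did so by at least 2-fold on the log2(FPKM + 1) scale. By mean FPKM, the called genes SLC15A1, SLC22A18AS and SLC34A3 also fell by over 2-fold. Their iEV means were 2.32, 2.22 and 2.20 times those of iGLI2. SLC7A7 (hg19 chr14:23242432-23289020), the light chain of an exchanger for cationic and neutral amino acids, was at 13.4, 17.2 and 18.01 FPKM in iEV cells and at 5.25, 8.30 and 8.48 FPKM in iGLI2 cells. It fell by 1.06 on the log2 scale (SE 0.19, adjusted p = 0.0144). SLC4A11 (hg19 chr20:3208063-3219887), a relative of the bicarbonate carriers, was at 4.44, 6.90 and 6.11 FPKM in iEV cells and at 1.63, 2.52 and 2.76 FPKM in iGLI2 cells. It fell by 1.05 on the log2 scale (SE 0.19, adjusted p = 0.0145). In both genes the first replicate was the lowest of its group in iEV and in iGLI2, and the groups did not overlap. Without iEV replicate 2 or without iEV replicate 3 neither passed, with adjusted p values of up to 0.0663 and 0.0660. Their log2 fold changes stayed between -0.86 and -1.18 for SLC7A7 and between -0.89 and -1.20 for SLC4A11 over the 6 fits with 1 library fewer.

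**Figure D2:**
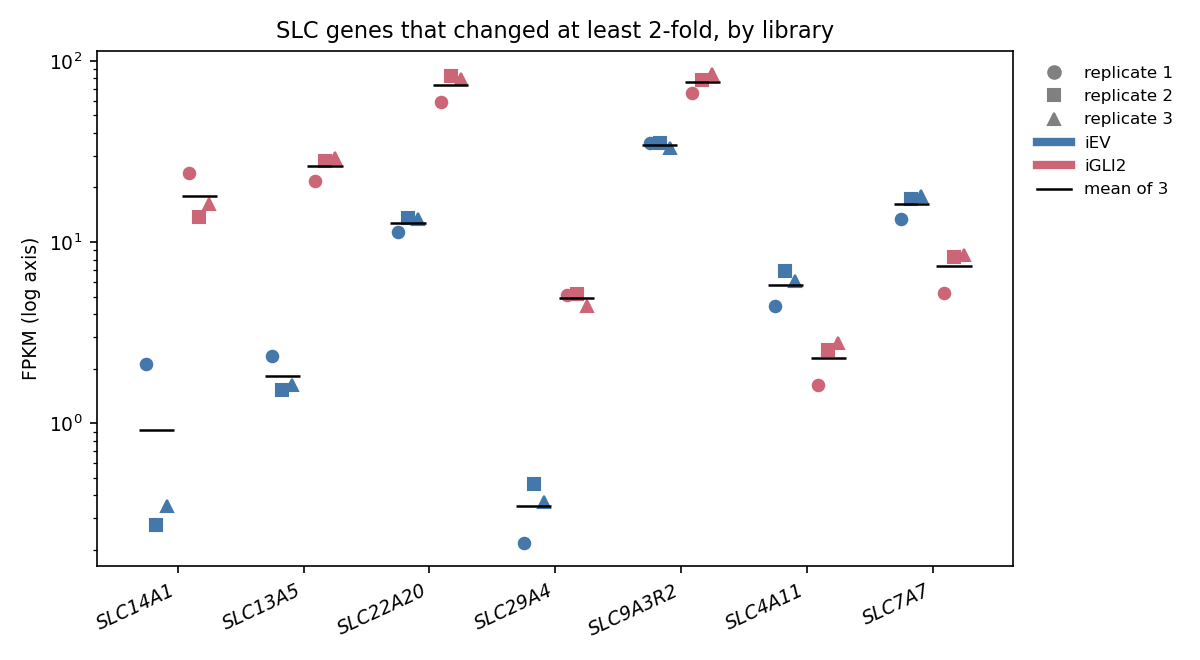
FPKM on a log axis in each library for the 7 SLC genes with an adjusted p under 0.05 and a fitted change of at least 2-fold. Blue marks iEV and red iGLI2, the marker shape gives the replicate and the bar the mean of 3, and in all 7 genes the groups do not overlap.

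Genes were then grouped by the substrate of their family. The counts of each class stand beside 10.1% higher and 11.8% lower among all genes tested. Carriers of amino acids, peptides and neurotransmitters numbered 28, of which 2 were higher and 5 lower, with a median log2 fold change of -0.18. Their summed level was 915, 928 and 896 FPKM in the iEV libraries and 697, 833 and 834 FPKM in the iGLI2 libraries. All iGLI2 sums lay below all iEV sums, and iGLI2 replicate 1, the lowest of its group in 16 of the 28 genes, was the lowest of all. Such a separation was not particular to this class. Sums for metals and heme were 601 to 616 FPKM in iEV and 576 to 600 FPKM in iGLI2 libraries. Those for sugars, polyols and sugar phosphates were 305 to 324 and 277 to 279 FPKM. Abundant genes weigh most in these sums, among them SLC3A2, SLC7A5 and SLC1A5, none of which was called.

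The genes that rose in this class were SLC6A8 and SLC7A11. SLC6A8, the creatine transporter, was at 8.75, 10.9 and 11.3 FPKM in iEV and at 17.6, 22.9 and 21.1 FPKM in iGLI2 cells (log2 fold change 0.93, SE 0.13, adjusted p = 0.00581). SLC7A11, the light chain of the exchanger that takes up cystine for glutathione synthesis in return for glutamate, was at 20.3, 21.6 and 21.1 FPKM in iEV and at 35.5, 32.4 and 29.3 FPKM in iGLI2 cells (log2 fold change 0.60, SE 0.082, adjusted p = 0.00523). Both passed with each library left out.

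SLC7A11 works as a pair with SLC3A2, the heavy chain that carries several light chains to the membrane. SLC3A2 had the highest mean of the class and was at 165, 164 and 162 FPKM in iEV and at 109, 155 and 160 FPKM in iGLI2 cells (log2 fold change -0.23, adjusted p = 0.336). SLC7A5, the light chain for large neutral amino acids, was at 157, 147 and 138 FPKM and at 89.3, 136 and 137 FPKM (log2 fold change -0.31, adjusted p = 0.274). SLC1A5, the carrier of glutamine and other neutral amino acids, was at 103, 121 and 110 FPKM and at 50.5, 99.97 and 104 FPKM (log2 fold change -0.45, adjusted p = 0.314). In all 3 genes iGLI2 replicate 1 was far under the other 2 iGLI2 libraries, and without it the log2 fold changes were -0.057, -0.11 and -0.12, none of them past the threshold. SLC7A6, another light chain, had a log2 fold change of -0.18 (adjusted p = 0.142), and passed only without iGLI2 replicate 1 or without both first replicates among the fits run. SLC3A1, the heavy chain of kidney and gut, was not among the 154 genes.

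Within the same heteromeric family the light chains thus took different values beside an SLC3A2 that was not called, with 0.60 for SLC7A11 and -1.06 for SLC7A7. These differences between genes were not tested.

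Among the genes that fell, SLC38A2 was the most abundant. It encodes a sodium-coupled carrier of small neutral amino acids and was at 133, 143 and 141 FPKM in iEV and at 101, 97.9 and 98.9 FPKM in iGLI2 cells. It fell by 0.48 on the log2 scale (SE 0.057, adjusted p = 0.0031), passed with each library left out, and showed little spread within a group. Its relative SLC38A1, in the same chromosomal neighbourhood, had a log2 fold change of -0.034 (adjusted p = 0.882). SLC7A4, a relative of the cationic amino acid carriers, was at 5.29, 5.33 and 4.82 FPKM in iEV and at 2.47, 2.54 and 2.89 FPKM in iGLI2 cells, and fell by 0.76 on the log2 scale (adjusted p = 0.00193).

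Both proton-coupled peptide carriers of the cell surface were lower in iGLI2 cells. The low-affinity carrier SLC15A1 was at 2.58, 2.26 and 2.62 FPKM in iEV and at 1.05, 1.08 and 1.09 FPKM in iGLI2 cells, and fell by 0.75 on the log2 scale (adjusted p = 0.0025). The high-affinity carrier SLC15A2 fell by 0.23 on the log2 scale (adjusted p = 0.0398), a call that was lost without any 1 of the libraries other than iGLI2 replicate 1 and with the libraries rescaled. The lysosomal peptide and histidine carriers were not called, with log2 fold changes of -0.37 for SLC15A3 and 0.41 for SLC15A4. SLC15A2 is named here, as are the other called genes beyond the largest changes of each class, after its values were seen.

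SLC43A1, a carrier of branched-chain amino acids, had the largest fitted decrease of all 154 genes without a call, and is also named after its values were seen. It was at 8.06, 8.81 and 8.24 FPKM in iEV and at 1.69, 4.93 and 4.39 FPKM in iGLI2 cells (log2 fold change -1.09, SE 0.30, adjusted p = 0.0501). The groups did not overlap, and iGLI2 replicate 1 was again the lowest. Without that library the log2 fold change was -0.73 (SE 0.071, adjusted p = 0.00334).

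**Figure D3:**
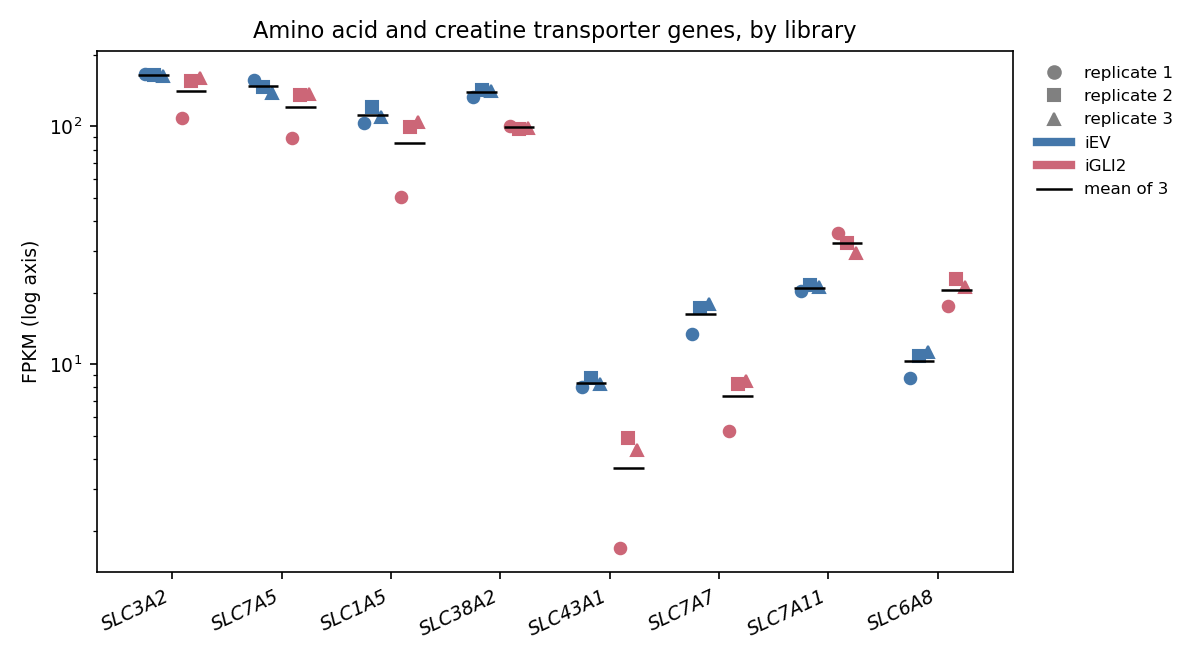
FPKM on a log axis in each library for 8 genes of amino acid and creatine transport. Blue marks iEV and red iGLI2, the marker shape gives the replicate and the bar the mean of 3. The circle of iGLI2 replicate 1 lies below the rest of its group for SLC3A2, SLC7A5, SLC1A5 and SLC43A1, while SLC38A2 has 3 iGLI2 values within 97.9 to 101 FPKM.

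Carriers of inorganic ions numbered 29, of which 3 were higher and 7 lower, with a median log2 fold change of -0.031. The sulfate and chloride family 26 gave 2 of the increases. SLC26A2, a sulfate carrier, was at 15.9, 13.1 and 12.7 FPKM in iEV and at 30.4, 20.8 and 21.5 FPKM in iGLI2 cells (log2 fold change 0.75, adjusted p = 0.0254). SLC26A9, which conducts chloride in gastric, airway and duct epithelium, was at 1.47, 0.897 and 0.897 FPKM and at 2.46, 2.67 and 2.88 FPKM (log2 fold change 0.82, adjusted p = 0.00916). By mean FPKM, its iGLI2 level was 2.45 times that of iEV. SLC26A9 passed with each library left out, and SLC26A2 passed in 2 of the 6 such fits, missing without any 1 of iEV replicates 2 and 3 and iGLI2 replicates 2 and 3.

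In family 4, the chloride and bicarbonate carriers, SLC4A7 was higher and SLC4A11 and SLC4A2 were lower. SLC4A7 couples sodium to bicarbonate, and had values of 3.68, 3.16 and 2.95 FPKM in iEV and 5.98, 4.69 and 4.49 FPKM in iGLI2 cells (log2 fold change 0.50, adjusted p = 0.0329). SLC4A2, an anion exchanger and the most abundant of the family, was at 52.96, 57.0 and 56.1 FPKM and at 33.7, 42.6 and 43.8 FPKM, and fell by 0.46 on the log2 scale (adjusted p = 0.0324). The first replicate was the highest of both groups for SLC4A7 and the lowest of both for SLC4A2. Without any 1 of replicates 2 and 3 of either group neither gene passed, and SLC4A2 also did not without iEV replicate 1. SLC4A3 (0.36) and SLC4A5 (-0.089) were not called.

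The other ion carriers that fell handle phosphate, sodium, calcium and potassium or chloride. SLC34A3, a sodium-phosphate carrier of kidney, was at 1.91, 2.67 and 2.20 FPKM in iEV and at 1.10, 1.10 and 0.881 FPKM in iGLI2 cells, and fell by 0.68 on the log2 scale (adjusted p = 0.0117). SLC9B2, a sodium and proton exchanger, fell by 0.60 (adjusted p = 0.00574) from 2.26 to 2.53 FPKM in iEV to 1.16 to 1.38 FPKM in iGLI2 libraries, while its neighbour SLC9B1 had 0.032 (adjusted p = 0.804). SLC12A9, a relative of the cation and chloride cotransporters, fell by 0.59 (adjusted p = 0.00275). SLC8B1, the sodium and calcium exchanger of mitochondria, fell by 0.46 (adjusted p = 0.00358), with values of 13.1 to 13.5 FPKM in iEV and 9.02 to 9.84 FPKM in iGLI2 libraries. These 4 passed with each library left out. SLC20A2, a phosphate carrier of most tissues, fell by 0.29 (adjusted p = 0.0221), and shares its locus with SMIM19 on the other strand, at 17.5 to 23.5 FPKM. Its call was lost without iEV replicate 1 or 2, without iGLI2 replicate 2 or 3, and with the libraries rescaled.

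The most abundant of the 154 genes was SLC12A2, which carries sodium, potassium and chloride into epithelial cells. It was at 218, 176 and 177 FPKM in iEV and at 168, 128 and 127 FPKM in iGLI2 cells, with groups that did not overlap and a log2 fold change of -0.43 (SE 0.14, adjusted p = 0.0871). In both groups the first replicate was the highest. Without both first replicates, a fit chosen after the data were seen, the log2 fold change was -0.46 (SE 0.025, adjusted p = 0.00188). SLC20A1, a phosphate carrier named after its values were seen, had the same arrangement, with 164, 73.5 and 79.7 FPKM in iEV and 246, 103 and 99.1 FPKM in iGLI2 cells (log2 fold change 0.46, adjusted p = 0.525), and 0.39 without both first replicates (adjusted p = 0.0105). The nucleoside carrier SLC29A2 was at 41.9, 26.1 and 25.6 FPKM and at 33.8, 19.9 and 21.5 FPKM. Its log2 fold change was -0.30 (adjusted p = 0.465), and -0.31 without both first replicates (adjusted p = 0.017). In the fit without both first replicates 21.3% of all genes were called higher and 22.5% lower, so a pass there does not mark these genes out. What sets the first replicates apart was not tested.

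Carriers of lipids, bile acids, organic ions, carboxylates and urea numbered 20, of which 3 were higher and 2 lower, with a median log2 fold change of 0.0046. The increases were SLC14A1, SLC13A5 and SLC22A20. Their class summed to 179, 163 and 155 FPKM in iEV and to 254, 270 and 270 FPKM in iGLI2 libraries, and SLC22A20, the pseudogene, supplied the largest part of that difference. The decreases were small. SLC18B1, a vesicular polyamine carrier, was at 10.9, 9.90 and 9.49 FPKM in iEV and at 8.24, 7.91 and 6.76 FPKM in iGLI2 cells (log2 fold change -0.36, adjusted p = 0.037). SLC27A5, a bile acid and fatty acid coenzyme A ligase, was at 1.68, 1.73 and 2.01 FPKM and at 1.15, 1.35 and 1.05 FPKM (log2 fold change -0.36, adjusted p = 0.046). SLC27A5 did not pass with any 1 library left out, and SLC18B1 passed only without iGLI2 replicate 1. The other expressed fatty acid genes SLC27A1, SLC27A2, SLC27A3 and SLC27A4 were not called, and neither were the organic cation and carnitine carriers SLC22A2, SLC22A3, SLC22A4 and SLC22A5.

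SLC17A5, the lysosomal exporter of sialic acid, had groups that did not overlap, at 27.7, 21.4 and 18.7 FPKM in iEV and at 47.96, 32.3 and 31.1 FPKM in iGLI2 cells, and a log2 fold change of 0.68 (adjusted p = 0.0687). It is named after its values were seen.

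Carriers of metals and heme numbered 24, of which 3 were higher and 3 lower, with a median log2 fold change of -0.053. The zinc importers of family 39 had 11 expressed genes, 1 of them higher and 1 lower. SLC39A6 was at 25.8, 25.3 and 26.1 FPKM in iEV and at 36.5, 32.01 and 32.6 FPKM in iGLI2 cells (log2 fold change 0.37, adjusted p = 0.0144). SLC39A11 was at 38.8, 44.2 and 44.7 FPKM and at 27, 31.6 and 30.6 FPKM, and fell by 0.50 on the log2 scale (adjusted p = 0.013). Both calls were lost without iEV replicate 2 or without iEV replicate 3. The most abundant of the class, SLC39A1, was at 91.7, 97.1 and 97.6 FPKM and at 90.7, 82.5 and 79.2 FPKM (log2 fold change -0.18, adjusted p = 0.131).

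SLC30A5, which loads zinc into the secretory pathway, was at 29.9, 28.4 and 26.7 FPKM in iEV and at 37.8, 34.2 and 33.7 FPKM in iGLI2 cells (log2 fold change 0.31, adjusted p = 0.0352). The call of SLC30A5 was lost without any 1 of replicates 2 and 3 of either group. The surface zinc exporter SLC30A1 had -0.30 (adjusted p = 0.074). SLC41A2, a magnesium carrier, was at 16.8, 13.2 and 12.9 FPKM and at 10.6, 7.11 and 6.60 FPKM, and fell by 0.77 on the log2 scale (adjusted p = 0.0352), while its relatives SLC41A1 (0.085) and SLC41A3 (-0.016) were not called. The heme carrier SLC48A1 was higher by 0.27 and the copper carrier SLC31A2 lower by 0.29, whereas the copper importer SLC31A1 had -0.03 (adjusted p = 0.798). SLC48A1 did not pass with any 1 library left out, and SLC41A2 and SLC31A2 passed only without iGLI2 replicate 1. The iron exporter SLC40A1 (-0.42, adjusted p = 0.114) and the iron importer SLC11A2 (-0.22, adjusted p = 0.135) were not called.

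Carriers of nucleosides and nucleotide sugars numbered 28, of which 3 were higher and 3 lower, with a median log2 fold change of 0.071. Beyond SLC29A4, the changes lay in family 35, which brings nucleotide sugars into the Golgi and endoplasmic reticulum for glycosylation and also holds carriers of unknown substrate. Of its 23 expressed genes, 2 were higher and 3 lower. SLC35G2, of unknown substrate, was at 17.2, 14.4 and 12.1 FPKM in iEV and at 28.4, 23.5 and 22.8 FPKM in iGLI2 cells (log2 fold change 0.74, adjusted p = 0.0168). SLC35D2, which carries UDP-N-acetylglucosamine, was at 24.6, 25.2 and 27.3 FPKM and at 17.9, 16.9 and 16.7 FPKM, and fell by 0.56 on the log2 scale (adjusted p = 0.003). SLC35F2 was at 46.1, 44.2 and 43.7 FPKM and at 37.6, 29.5 and 29.8 FPKM, and fell by 0.46 on the log2 scale (adjusted p = 0.0272). SLC35D2 passed with each library left out, SLC35G2 did not without iEV replicate 2, iEV replicate 3 or iGLI2 replicate 2, and SLC35F2 passed only without iGLI2 replicate 1.

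The remaining calls in family 35 were SLC35E3 (0.25, adjusted p = 0.036) and SLC35A4 (-0.25, adjusted p = 0.0234). Both passed, of the fits with 1 library left out, only in that without iGLI2 replicate 1. The established nucleotide sugar carriers for CMP-sialic acid (SLC35A1, -0.084), UDP-galactose (SLC35A2, 0.012), GDP-fucose (SLC35C1, -0.46) and sulfate donor PAPS (SLC35B2, 0.21) were not called. SLC35B2 was the most abundant of the class, at 76.2, 73.4 and 72.1 FPKM in iEV and at 92.7, 82.9 and 82.1 FPKM in iGLI2 cells (adjusted p = 0.082).

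The 8 genes placed with sugars, polyols and sugar phosphates had groups that did not overlap in each case, against 42.0% of all genes tested. Of these 8 genes, 2 were higher and 4 lower, beside 10.1% and 11.8% of all genes, with a median log2 fold change of -0.22. With so few genes, such shares are uncertain. SLC5A6 stands here by its family number although it carries the vitamins biotin and pantothenate (log2 fold change -0.22, adjusted p = 0.0569). The genes of family 37, placed with sugar phosphates by family number and not by a shown substrate of each, went in both directions. SLC37A3 was at 59.3, 48.6 and 50.7 FPKM in iEV and at 34.01, 28.6 and 26.3 FPKM in iGLI2 cells, and fell by 0.82 on the log2 scale (adjusted p = 0.00699). SLC37A2 was at 36.3, 29.8 and 28.5 FPKM and at 45.4, 50.5 and 49.4 FPKM (log2 fold change 0.61, adjusted p = 0.0119), and SLC37A1 had 0.36 (adjusted p = 0.0354), a call lost without any 1 of replicates 2 and 3 of either group. SLC37A4, the glucose-6-phosphate carrier of the endoplasmic reticulum, was at 64.8 to 68.1 FPKM and at 57.7 to 58.9 FPKM (log2 fold change -0.18, adjusted p = 0.0634). SLC37A3 passed with each library left out, and SLC37A2 did not without iEV replicate 2, iGLI2 replicate 2 or iGLI2 replicate 3.

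Both expressed genes of family 45, named for proton-coupled sugar transport, were lower. SLC45A4 was at 12.1, 11.8 and 10.9 FPKM in iEV and at 5.84, 5.78 and 6.95 FPKM in iGLI2 cells, and fell by 0.81 on the log2 scale (adjusted p = 0.00214). SLC45A3 fell by 0.36 (adjusted p = 0.0221), a call lost with the libraries rescaled and without any 1 of replicates 2 and 3 of either group. SLC50A1, a sugar carrier and the most abundant of the class, was at 89.1, 90.3 and 85.9 FPKM and at 73.8, 75.8 and 78.7 FPKM, and fell by 0.22 on the log2 scale (adjusted p = 0.0446), a call lost without any 1 of the libraries other than iGLI2 replicate 1.

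Carriers of vitamins, cofactors and choline numbered 12, of which 1 was higher and 3 lower, with a median log2 fold change of -0.079. SLC44A3, of the choline carrier family, was at 16.98, 17.7 and 15.9 FPKM in iEV and at 11.6, 8.53 and 8.95 FPKM in iGLI2 cells, and fell by 0.75 on the log2 scale (adjusted p = 0.00829). SLC44A2, the most abundant of the class, had 0.17 (adjusted p = 0.21). SLC52A2, a riboflavin carrier, was at 82.8, 73.5 and 71.6 FPKM and at 56.4, 58.0 and 54.4 FPKM, and fell by 0.42 on the log2 scale (adjusted p = 0.0127). The second riboflavin carrier SLC52A3 had -0.36 (adjusted p = 0.0623). SLC33A1, which brings acetyl coenzyme A into the endoplasmic reticulum, was higher by 0.31 (adjusted p = 0.0261), and the lysosomal SLC46A3 was lower by 0.42 (adjusted p = 0.0245). SLC44A3 passed with each library left out. SLC52A2 did not without iGLI2 replicate 3 (adjusted p = 0.0518), SLC46A3 passed only without iGLI2 replicate 1 or 2, and SLC33A1 only without iGLI2 replicate 1. The folate carriers SLC19A1 (-0.13) and SLC46A1 (-0.025) and the thiamine carrier SLC19A2 (0.12) were not called.

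**Figure D4:**
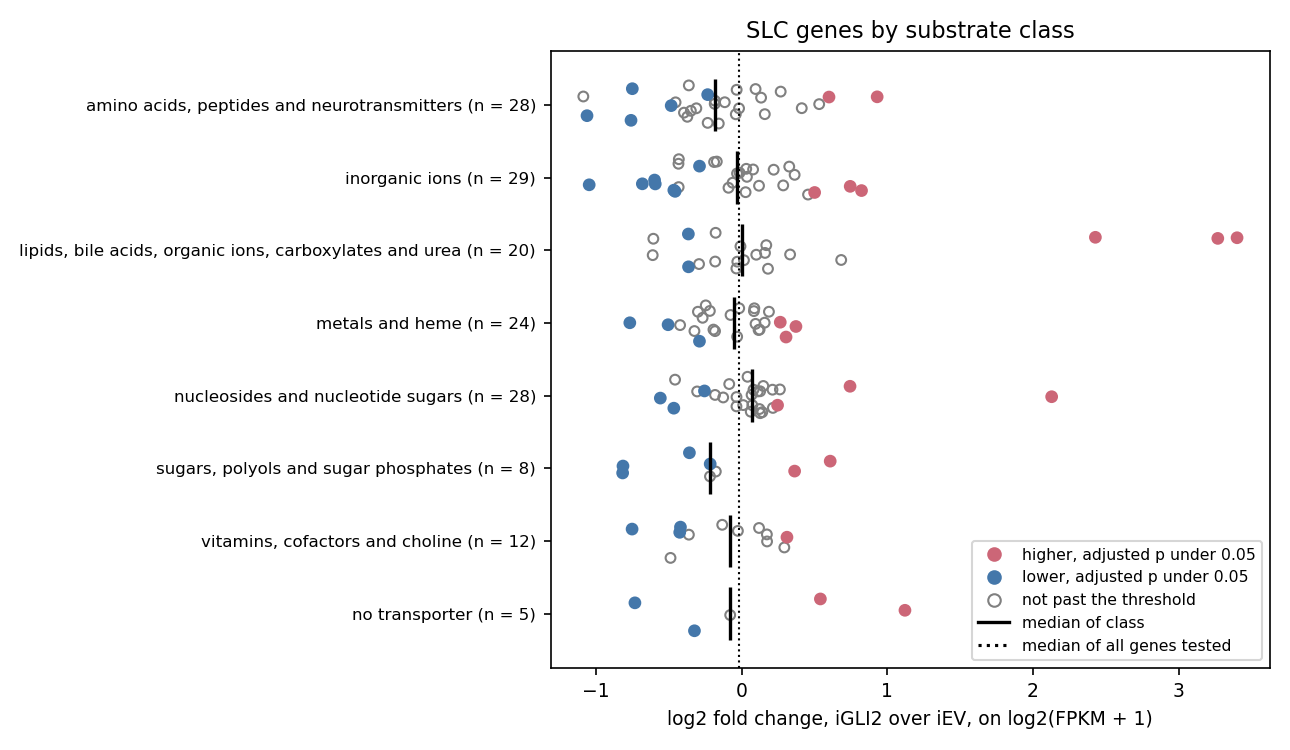
Log2 fold change, iGLI2 over iEV, of each of the 154 SLC genes by the substrate class of its family, with filled points for an adjusted p under 0.05. Solid bars give the class medians, which lie between -0.22 and 0.071, and the dotted line gives the median of all genes tested at -0.015.

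The 5 genes that are no transporters gave 2 higher and 2 lower. SLC9A3R1, also called NHERF1, is the apical scaffold related to SLC9A3R2, and was at 96.3, 84.0 and 81.3 FPKM in iEV and at 107, 133 and 145 FPKM in iGLI2 cells (log2 fold change 0.54, adjusted p = 0.0353). It passed only without iGLI2 replicate 1 among the fits with 1 library left out. The sodium and proton exchanger SLC9A3, after which both scaffolds are named, had -0.43 (adjusted p = 0.169). SLC22A18AS was at 2.30, 2.70 and 2.96 FPKM in iEV and at 1.06, 1.25 and 1.28 FPKM in iGLI2 cells, and fell by 0.73 on the log2 scale (adjusted p = 0.00531). Its overlapping partner on the other strand, SLC22A18, was at 43.1, 39.6 and 36.5 FPKM and at 18.6, 29.1 and 31.4 FPKM (log2 fold change -0.61, adjusted p = 0.0827), and since the sources used here do not say that reads were counted by strand, the reads of the pair cannot be told apart. The same holds for SLC7A6, which shares its locus with SLC7A6OS. SLC7A6OS fell by 0.32 (adjusted p = 0.0214), a call lost with the libraries rescaled and without any 1 of replicates 2 and 3 of either group. SLC48A1, SLC35A4 and SLC39A1 also share their locus in the table with a gene on the other strand, and near-identical copies make SLC7A5, SLC6A8, SLC35E2 and SLC35E2B uncertain.

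Other genes of membrane transport were taken from a list of 41, of which 38 were in the table and 19 had a mean of at least 1 FPKM, SLC9A3R1 and SLC9A3R2 among them. In iGLI2 cells 4 were higher and 5 lower, beside 10.1% and 11.8% of all genes tested, and the median log2 fold change of the 19 was -0.076. NEDD4L, a ubiquitin ligase that removes carriers and channels from the surface, fell by 0.68 (adjusted p = 0.00169). Of the kinases that act on SLC proteins, SGK2 fell by 1.36 (adjusted p = 0.00179) and SGK1 was higher by 0.70 (adjusted p = 0.0352), both at under 4 FPKM. The more abundant kinases WNK1 (0.16), STK39 (-0.065) and OXSR1 (-0.076) were not called. Their means were 13.6, 42.1 and 9.63 FPKM. Of the organic anion carriers of the SLCO family, SLCO3A1 fell by 0.68 (adjusted p = 0.0121) and SLCO2A1 by 0.61 (adjusted p = 0.0356). SLCO4A1 was higher by 0.37 (adjusted p = 0.02). SGK1 (iEV mean 0.867 FPKM), SGK2 (iGLI2 mean 0.617 FPKM) and SLCO2A1 (iGLI2 mean 0.746 FPKM) passed the limit of level only through the group where they were higher. Without iEV replicate 2 the calls of SLC9A3R1, SGK1, SLCO2A1, SLCO3A1 and SLCO4A1 were lost, without iEV replicate 3 or iGLI2 replicate 3 the list had 5 calls, and without iGLI2 replicate 2 it had 6.

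At the limit of 1 FPKM, the 3 genes just inside were SLC9A2 (mean 1.04 FPKM), SLC22A2 (1.05 FPKM) and SLC35D1 (1.08 FPKM), and the 3 just outside were SLC22A15 (0.985 FPKM), SLC5A10 (0.982 FPKM) and SLC7A8 (0.962 FPKM). Values of the groups overlapped in all of these but SLC7A8. By level, 14 of the 82 genes averaging 10 FPKM or more were higher and 17 lower, and among the 72 genes under 10 FPKM 5 were higher and 12 lower. Of all genes tested, 9.55% were higher and 12.6% lower at 10 FPKM or more, and 10.7% and 10.9% under it.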

How the data were processed

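Total RNA of 3 YAPC-iGLI2 and 3 YAPC-iEV samples in Dox was sequenced, and groups and replicate numbers were taken from the sample titles. Reads were trimmed with Trimmomatic, aligned with TopHat2 to hg19 and passed to Cuffdiff 2.1.1, per the paper and the submitters' processing notes. The deposited table, made by the authors, holds FPKM values per gene and library. Its header names no unit, and FPKM was inferred from the form of the values. Its read depth is unknown, so no counting interval is given. Of 27024 entries, 1252 lay outside the primary chromosomes and 330 were repeats of a name with a lower mean, leaving 25442 genes. All columns of values were assigned to a sample.

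limma 3.58.1 (R 4.3.3) was run on log2(FPKM + 1) of the 12493 genes averaging 1 FPKM or more, two-sided, with group alone in the model, an intensity trend and Benjamini-Hochberg adjustment over all genes (threshold 0.05). The test was tried on simulated data first. An exact permutation test of 3 against 3 cannot go below p = 0.1 and was not used. Fold changes on this scale understate the change of low genes.

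Named genes were those changed at least 2-fold, the 2 largest called increases and decreases and the highest mean of each class, the heteromeric subunits, the genes at the limit of level, and called accessory genes, 1 of which is not reported here. Classes follow family numbers and general knowledge. The members and lists were chosen with earlier results of these data known. Alternatives were other scalings, pseudocounts, level limits, replicate blocks, a fit without the trend, and leaving out libraries. Figures used Python 3.11.15 and matplotlib 3.10.9. Upstream sequences came from RefSeq (GRCh38.p14) and overlaps from GENCODE.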

Additional observations from a re-analysis of the deposited data

Results flagged for a closer look

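SLC7A8, a light chain of the heteromeric amino acid exchangers, was outside the rule on level with a mean of 0.962 FPKM and was therefore in no comparison above. It was at 0.488, 0.690 and 0.916 FPKM in iEV and at 1.26, 1.29 and 1.13 FPKM in iGLI2 libraries, and its iGLI2 mean of 1.23 FPKM exceeds the limit of 1 that the mean over both groups missed. Every iGLI2 value lay above every iEV value, and limma without a filter on level gave a difference of 0.40 on the log2 scale (adjusted p = 0.0524).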

How the results depend on the processing

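With 3 libraries a group, single libraries decided many calls. Over the 6 fits that each left out 1 library, genes called higher numbered 8 to 25, genes called lower 13 to 38, accessory genes called 4 to 11, and named genes called 19 to 39 of 40. Without both first replicates, an alternative chosen after seeing the data, 37 were higher and 49 lower, and the median log2 fold change was -0.0042. With small RNA genes left out and libraries rescaled, the median was 0.037, while that of all genes tested went from -0.015 to 0.055. A mean of at least 5 FPKM left 19 lower genes, and an adjusted p under 0.01 left 8 higher, 11 lower and 4 accessory genes. A fitted change of at least 2-fold left 5, 2 and 2. For the limit of 5 FPKM and the threshold of 0.01 the share of all genes that passed was not counted. These drops therefore cannot be read as particular to SLC genes. The log2 fold change of SLC9A2, not called in any of these fits, changed sign to -0.0835 under quantile normalization, to -0.0182 and -0.068 without iEV replicate 2 or 3 and to -0.0975 without iGLI2 replicate 1, and ranged up to 0.197 without iEV replicate 1. The cause was not tested. The replicate number as a replicate block gave 24 higher and 39 lower genes, and a block on the digit in the sample codes gave 14 and 23. The share of all genes that passed was not counted for the block fits. Deviations of same-numbered libraries correlated with r = 0.204, 0.0919 and 0.0276 over 12493 genes, and iEV replicate 2 correlated best with iGLI2 replicate 3 (0.117), so the numbers were not taken as pairs. For 72 of the genes named, 1134 pairs of a gene and a setting were counted. Of these, 930 kept direction and side of the threshold, 173 fell short of it, 27 passed it anew and 4, those of SLC9A2, changed sign. Genes given only for comparison were not counted, and some of them changed sign too. With the libraries rescaled, SLC31A1 went from -0.030 to 0.045 and SLC38A1 from -0.034 to 0.044.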

Other observations

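Among SLC names with a mean under 1 FPKM, 111 took part in the limma fit without a filter on level and 10 of them passed an adjusted p of 0.05, beside 8.72% of all genes under 1 FPKM in that fit. SLC6A15, a carrier of branched-chain amino acids and proline, was at 0.137, 0.228 and 0.161 FPKM in iEV and at 0.846, 0.767 and 0.808 FPKM in iGLI2 libraries (log2 fold change 0.62, adjusted p = 0.00101). SLC1A3, a glutamate carrier of glia, was at 0.373, 0.443 and 0.413 FPKM and at 0.828, 0.692 and 0.680 FPKM (log2 fold change 0.30, adjusted p = 0.0134). SLC6A20, a proline carrier of kidney and gut, was at 0.623, 0.386 and 0.452 FPKM and at 0.0624, 0.131 and 0.126 FPKM (log2 fold change -0.42, adjusted p = 0.0115). The others were SLC51B, SLC13A1, SLC35D3 and SLC45A1, which were higher, and SLC22A31, SLC5A5 and SLC7A5P2, which were lower. These genes were named after their values were seen.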
